A study of Rattus norvegicus with 12 samples.

Results

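Krüppel-like factors (KLF) were examined in primary rat atrial fibroblasts exposed to angiotensin II (AngII). The 10 members described here were Klf2, Klf3, Klf4, Klf5, Klf6, Klf9, Klf10, Klf11, Klf13 and Klf15, found by gene symbol among the 22850 genes of the read count and FPKM tables, which held 17 KLF genes in all. Klf4 was selected on its measured level, which differed between the libraries treated with HNG and those treated with MOTS-c, so its differences are given as a description without a p-value, and no member was tested between the peptides. The other 9 members were taken as family members and were tested against AngII alone.

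The cells were isolated from neonatal Sprague-Dawley rats by differential adhesion, which enriches fibroblasts without sorting them, and RNA was taken after 48 h. All 12 libraries received AngII at 1 µmol/L, the main effector peptide of the renin-angiotensin system. In the AngII+HNG group, HNG at 10 µmol/L, an analogue of the mitochondrial peptide humanin with a glycine substitution, was added 1 h before AngII. In the AngII+MOTS-c group, MOTS-c at 5 µmol/L, another peptide encoded in mitochondrial DNA, was added in the same way. Each group had 4 libraries, there was no group without AngII and none with a peptide alone, and the peptides were used at different doses. The study describes the 4 libraries of a group as independent biological samples, and the p-values measure the spread between them.

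KLF proteins are transcription factors that bind GC-rich and CACCC-type DNA through zinc fingers near their C-terminus. Members act as activators or repressors depending on their N-terminal regions and partner proteins. In cultured smooth muscle cells and fibroblasts Klf4 is known as a repressor of contractile genes, and it is best known as a reprogramming factor. Klf2, its close relative, is a flow-responsive gene of endothelial cells and a quiescence factor of lymphocytes and monocytes.

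The libraries held between 27960586 and 38322354 counts, and 3 counts corresponded to 0.0787 to 0.106 CPM, the counts scaled to the size of each library. All 9 fibroblast markers were above 1 CPM and together made up 62843 to 70795 CPM, led by the collagen gene Col1a1. The 10 cardiomyocyte markers were also present at 6685 to 8778 CPM, led by the α-myosin heavy chain gene Myh6 at a mean of 2093 CPM, so cells or RNA of other types were present in every group. AngII+HNG replicate 3 stood apart from its group, with a chi-square per gene of 14.3 to 19.4 against the other 3 libraries, compared with 5.31 to 8.89 for the other pairs of that group. The names of replicates 2 and 3 carry the same library number in every group. AngII+HNG replicate 3 was the lowest AngII+HNG library for Klf3, Klf6, Klf9, Klf10, Klf11 and Klf13.

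A few promoter windows are shown because Klf4 carried the difference between treatments, Klf3 was the member with the most CACCC motifs, and Acta2, which encodes smooth muscle α-actin, is a contractile gene of the class that Klf4 is known to repress. Each holds the 250 bases before the annotated transcription start in RefSeq (build GRCr8, 5′ to 3′ on the gene's strand). Capitals mark CACCC or its reverse complement GGGTG.
Klf4, chr5:75078593-75078842, minus strand: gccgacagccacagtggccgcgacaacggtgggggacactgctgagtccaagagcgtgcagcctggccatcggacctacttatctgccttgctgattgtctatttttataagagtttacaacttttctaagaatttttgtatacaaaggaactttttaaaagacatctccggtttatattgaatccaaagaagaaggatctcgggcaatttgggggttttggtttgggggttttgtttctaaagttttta
Klf3, chr14:43850827-43851076, minus strand: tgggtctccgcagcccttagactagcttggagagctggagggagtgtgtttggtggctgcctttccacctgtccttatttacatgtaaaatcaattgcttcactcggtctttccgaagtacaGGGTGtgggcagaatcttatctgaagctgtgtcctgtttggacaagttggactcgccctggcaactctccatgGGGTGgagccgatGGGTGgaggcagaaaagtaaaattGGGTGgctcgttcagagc
Acta2, chr1:241172504-241172753, minus strand: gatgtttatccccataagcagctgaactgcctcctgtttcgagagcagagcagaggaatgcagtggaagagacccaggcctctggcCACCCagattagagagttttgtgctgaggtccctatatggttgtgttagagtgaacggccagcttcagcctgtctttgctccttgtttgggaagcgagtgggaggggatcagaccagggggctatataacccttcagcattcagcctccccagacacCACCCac
The Klf4 window held no CACCC in either orientation, whereas the Klf3 window held 4 and the Acta2 window 2. The Klf4 window was 43.2% GC, against a median of 65.2% over the members with a window. The annotated starts were not checked against these data, so a window may not be the promoter in use. RefSeq windows were found for 7 of the 10 members (Klf3, Klf4, Klf5, Klf6, Klf9, Klf11 and Klf15). CACCC was present in 4 of these 7, compared with 49.2% of 33469 windows. The GC box GGGCGG, searched on both strands, was found in 2 of the 7, with 7 copies in Klf11 and 1 in Klf6, compared with 30.5% of all windows. TATAAA on either strand occurred only in the Klf4 window among the 7 and in 12.9% of all windows. Of the 13 smooth muscle contractile genes and regulators described further on, 9 had a window and 7 of those held CACCC. The GC box was found in 6 of these 9, and their median GC was 59.6%, compared with 51.2% over all windows. These matches describe letters in the windows and do not show binding.

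Per unit of transcript length, Klf4 was the most abundant KLF transcript. Its mean level over the 12 libraries was 38.3 ± 6.30 FPKM (SD, n = 12), followed by Klf6 at 27.9, Klf3 at 24.3, Klf9 at 21.9 and Klf2 at 19.5 FPKM. Klf6 is an early growth response factor of mesenchymal cells, Klf3 a repressor that recruits C-terminal binding protein, and Klf9 a target of glucocorticoid and thyroid hormone receptors. Klf10, a TGF-β early response gene, followed at 13.9 FPKM, and Klf15, a glucocorticoid-induced regulator of metabolism that is abundant in heart muscle, was at 7.97 FPKM. Klf13, Klf11 and Klf5 were lower, at 4.06, 3.15 and 2.08 FPKM. Klf11 is another TGF-β-inducible repressor, Klf13 a cardiac and lymphoid factor, and Klf5 a growth-associated factor of epithelium and activated smooth muscle.

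The ranges over the 12 libraries overlapped between Klf6 and Klf3, between Klf3 and Klf9, between Klf9 and Klf2 and between Klf13 and Klf11. Within libraries, however, the order was kept in 12 of 12 for Klf6 over Klf3, Klf3 over Klf9 and Klf13 over Klf11, and in 9 of 12 for Klf9 over Klf2. The libraries with Klf2 above Klf9 were AngII+HNG replicates 2, 3 and 4. The ranges did not overlap between Klf4 and Klf6, between Klf2 and Klf10, or between Klf11 and Klf5. Among the 7 KLF genes outside the 10, Klf16 stood at 8.80 FPKM and Klf12 at 1.88 FPKM, Klf1, Klf7, Klf8 and Klf14 averaged 0.0188 to 0.164 FPKM, and Klf17 had 0 counts in all 12 libraries, which allows a level of up to 0.0787 to 0.106 CPM per library. The order of the 10 was the same by median FPKM. It was also the same by TPM computed from the counts, but the lengths used were implied by the FPKM, so this was largely built in.

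**Figure D1:**
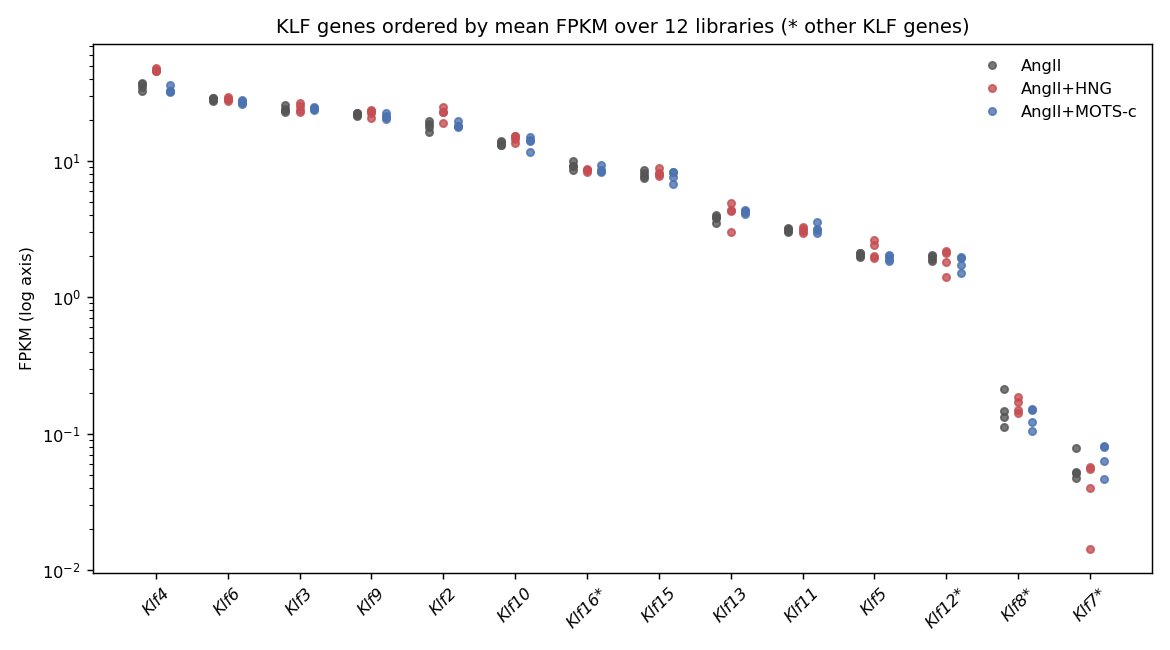
FPKM of KLF genes in each of the 12 libraries on a log axis, ordered by mean, with 1 point per library coloured by treatment and asterisks for KLF genes outside the 10 described. Klf4 stands highest with its AngII+HNG libraries above the rest, and Klf1, Klf14 and Klf17, with 0 in at least 1 library, are not drawn.

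Klf4 was higher in AngII+HNG. In the AngII libraries it was at 98.6, 100.2, 93.2 and 87.4 CPM (replicates 1 to 4). With HNG the values were 121.2, 127.4, 121.6 and 118.9 CPM, and with MOTS-c they were 85.7, 95.3, 86.6 and 86.3 CPM. All 4 AngII+HNG libraries lay above all 8 others, while the AngII and AngII+MOTS-c ranges overlapped. The group means were 94.9 ± 5.79, 122.3 ± 3.63 and 88.5 ± 4.58 CPM (SD, n = 4 each) for AngII, AngII+HNG and AngII+MOTS-c. Because RNA was measured in bulk, more cells with Klf4 RNA and more Klf4 RNA per cell cannot be told apart.

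Klf4 was 1.29-fold higher in AngII+HNG than in AngII, a log2 difference of 0.37 (SE 0.047, 95% interval 0.27 to 0.47). In AngII+MOTS-c its log2 difference from AngII was -0.098 (SE 0.048, 95% interval -0.20 to 0.0052). Between the peptides the log2 difference was 0.47 (SE 0.044, 95% interval 0.37 to 0.56), a 1.38-fold higher level with HNG. This last contrast is the one for which Klf4 was chosen, and both contrasts with AngII share its libraries. Groups that did not overlap, with HNG higher, were found for 6.87% of 14524 genes against AngII and for 6.37% of 14448 genes between the peptides, and nothing is read from Klf4 against these shares. Of the 13091 genes that averaged 1 CPM or more, 511 others (3.90%) had a log2 difference between AngII+HNG and AngII as high as that of Klf4 or higher. This share also rests on the AngII+HNG libraries for which Klf4 was chosen, so nothing is read from it either. Without AngII+HNG replicate 3 the difference from AngII was also 0.37.

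Taken by replicate number, the log2 difference of Klf4 between AngII+HNG and AngII was 0.30, 0.35, 0.38 and 0.44. Against MOTS-c the HNG values were 0.50, 0.42, 0.49 and 0.46 higher. The replicate numbers are not known to pair the libraries, and Klf4 was chosen on them, so these values are not independent repeats of an effect. Klf4 made up 22.3% ± 1.09 of the summed FPKM of the 10 members in AngII, 26.3% ± 1.03 in AngII+HNG and 21.4% ± 0.805 in AngII+MOTS-c (SD, n = 4). The sum itself was 158.1 ± 3.96, 176.4 ± 4.80 and 154.5 ± 2.60 FPKM.

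**Figure D2:**
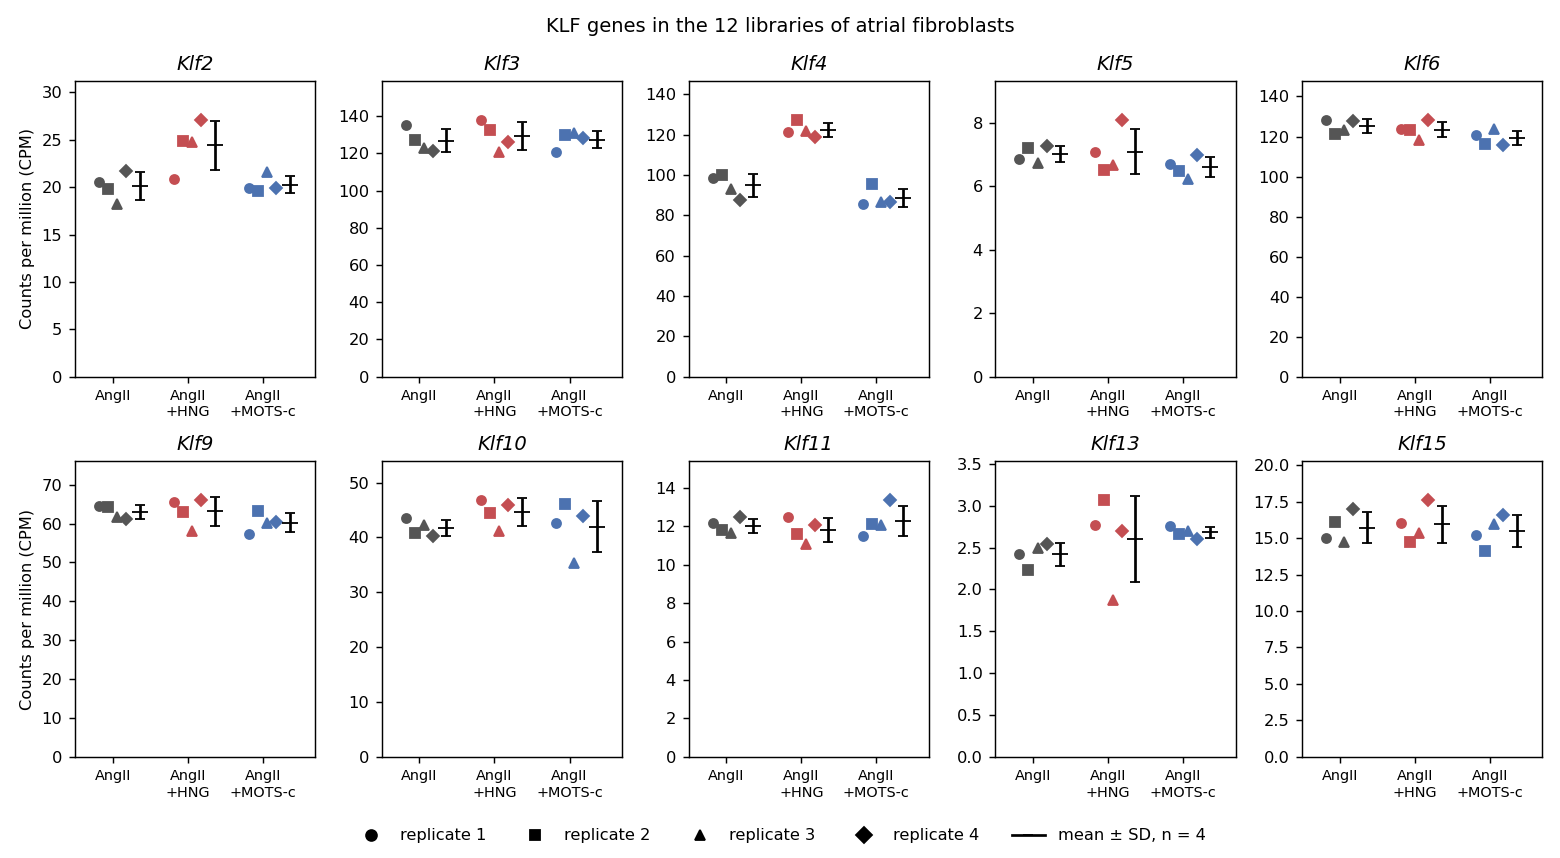
CPM of the 10 KLF genes in the 12 libraries, with 1 panel per gene, 1 marker shape per replicate number, and bars for the mean ± SD (n = 4). Klf4 separates AngII+HNG from both other groups, Klf2 is higher in 3 of the 4 AngII+HNG libraries than in every AngII library, and the groups of the other genes overlap except for Klf13 between AngII+MOTS-c and AngII.

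The other 9 members were compared between AngII+HNG and AngII, which asked whether HNG changed KLF expression under AngII. None passed an adjusted p of 0.05 with edgeR's quasi-likelihood test, compared with 5.98% of all 14524 genes tested (869 genes). At an unadjusted p below 0.05 there was 1 of the 9, Klf2, compared with 20.3% of all genes, and DESeq2 called the same gene. The log2 fold changes of the 9 had a median of 0.024, compared with 0.0043 over all genes, with 7 of 9 above 0 (51.3% of all genes) and 2 below. The AngII+HNG and AngII libraries overlapped for all 9, whereas they did not overlap for 13.7% of all genes. Their median absolute log2 fold change was 0.024, compared with 0.087 over all genes.

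Klf2 stood nearest the threshold. Its levels were 20.6, 19.8, 18.2 and 21.8 CPM with AngII, 20.9, 24.9, 24.7 and 27.1 CPM with HNG, and 19.9, 19.6, 21.6 and 19.9 CPM with MOTS-c. AngII+HNG replicate 1 lay within the AngII range and the other 3 AngII+HNG libraries lay above it. The log2 fold change between AngII+HNG and AngII was 0.29 (SE 0.080, 95% interval 0.11 to 0.46) with an adjusted p of 0.0546 (edgeR). Over 19 alternatives the adjusted p was below 0.05 in 7 and above it in the other 12. It was 0.0145 without AngII+HNG replicate 1, 0.0491 without AngII replicate 4, 0.0251 with DESeq2 and 0.0315 with a replicate block. It was 0.161 without AngII replicate 3, 0.148 without AngII+HNG replicate 4 and 0.157 with replicates 2 and 3 of each group summed. In each of the 19 the log2 fold change was positive, from 0.23 to 0.35.

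The summed markers of endothelial cells and of macrophages were higher in AngII+HNG, although most single markers of these lists did not pass the test. The 10 endothelial markers summed to 80.2 to 90.5 CPM in AngII, 102.7 to 113.0 CPM in AngII+HNG and 84.6 to 90.2 CPM in AngII+MOTS-c. Of these, 4 of 10 passed the test higher in AngII+HNG, compared with 3.4% of all genes. That count was 2 without AngII replicate 1, without AngII replicate 2, without AngII+HNG replicate 2 or without AngII+HNG replicate 4, and 1 without replicate 4 of every group. The most abundant was Tek, the angiopoietin receptor gene, with a log2 fold change of 0.40 (SE 0.065, adjusted p = 0.00347, edgeR).

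The 12 macrophage markers summed to 254.9 to 310.9 CPM in AngII, 349.8 to 456.6 CPM in AngII+HNG and 251.3 to 306.9 CPM in AngII+MOTS-c. Of the 11 tested, 4 passed the test higher in AngII+HNG, compared with 3.4% of all genes. The replicate block gave 7. The list did not move as a whole, since 3 of the 11 log2 fold changes were below 0: Adgre1 (-0.36, adjusted p = 0.185, edgeR), C1qc (-0.43, adjusted p = 0.255) and C1qb (-0.046, adjusted p = 0.916), named after their values were seen. Lyz2, the lysozyme gene of myeloid cells, was the most abundant and went from a mean of 102.4 to 171.4 CPM, while the mean sum went from 272.1 to 386.3 CPM, with a log2 fold change of 0.75 (SE 0.080, adjusted p = 0.000262, edgeR). No marker of any list was at 0 in all libraries, and in these 2 lists Cd163 and Cldn5 were below 1 CPM on average. For both lists the AngII+HNG libraries did not overlap the other 8, as for Klf4 and unlike Klf2. Their part in the levels of Klf4 and Klf2 was not tested.

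**Figure D3:**
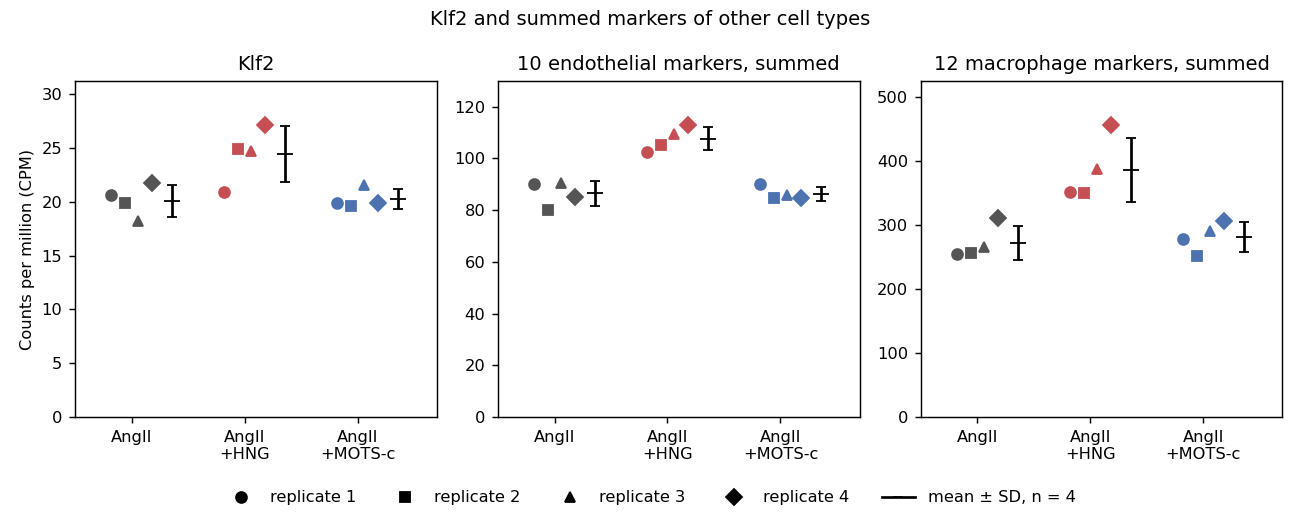
CPM of Klf2 and summed CPM of the 10 endothelial and 12 macrophage markers in the 12 libraries, with 1 marker shape per replicate number and bars for the mean ± SD (n = 4). The marker sums are higher in all 4 AngII+HNG libraries than in the other 8, while AngII+HNG replicate 1 has Klf2 within the AngII range.

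For the remaining 8 members the AngII+HNG and AngII ranges overlapped. The TGF-β-inducible Klf10 had 43.5, 40.7, 42.2 and 40.3 CPM with AngII and 46.9, 44.4, 41.3 and 46.0 CPM with HNG, and its log2 fold change of 0.10 had an interval of -0.0086 to 0.21 and an adjusted p of 0.292 (edgeR). Its relative Klf11 had a log2 fold change of -0.022 with an interval of -0.18 to 0.13. For the abundant Klf3 and Klf6 the intervals were narrow, -0.072 to 0.14 and -0.099 to 0.068. The hormone-responsive Klf9 and Klf15 had log2 fold changes of 0.010 and 0.024, with intervals of -0.095 to 0.12 and -0.14 to 0.19.

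The low-count members were measured less precisely. Klf13 had 62 to 117 counts per library, and its log2 fold change of 0.11 had an interval of -0.23 to 0.45. Its AngII+HNG values ran from 1.87 to 3.07 CPM, with AngII+HNG replicate 3 lowest. Klf5 was between 6.51 and 8.11 CPM with HNG and between 6.75 and 7.26 CPM with AngII, with a log2 fold change of 0.019 and an interval of -0.19 to 0.23.

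The same 9 members were compared between AngII+MOTS-c and AngII. None passed the threshold with edgeR, none of the 7 to which DESeq2 gave an adjusted p passed with it (Klf5 and Klf13 had none), and none had an unadjusted p below 0.05, compared with 0.0069% (1 gene) and 5.05% of 14488 genes. The median log2 fold change was 0.0095, with 5 above 0 (49.6% of all genes) and 4 below, and it was -0.00076 over all genes. Klf13 was the only one of the 9 whose groups did not overlap, with 2.60 to 2.75 CPM in AngII+MOTS-c and 2.23 to 2.54 CPM in AngII, compared with 3.41% of all genes in either direction and 1.68% with MOTS-c higher. Its log2 fold change of 0.15 had an interval of -0.12 to 0.42 and an adjusted p of 0.939 (edgeR). Klf6 had the smallest p of the 9 (adjusted p = 0.924, edgeR), with a log2 fold change of -0.070 and an interval of -0.14 to 0.0025.

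Klf2 had a log2 fold change of 0.011 with MOTS-c, with an interval of -0.13 to 0.15. Between the peptides, which were used at different doses and for which no test was made, Klf2 was 0.27 higher with HNG (SE 0.076) on the log2 scale, and the groups overlapped. The log2 differences of the remaining 8 members between AngII+HNG and AngII+MOTS-c ran from -0.055 for Klf11 to 0.10 for Klf5. Of the 9 members other than Klf4, 7 were above 0 (50.6% of all genes) and none had groups that did not overlap, compared with 12.6% of all genes.

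**Figure D4:**
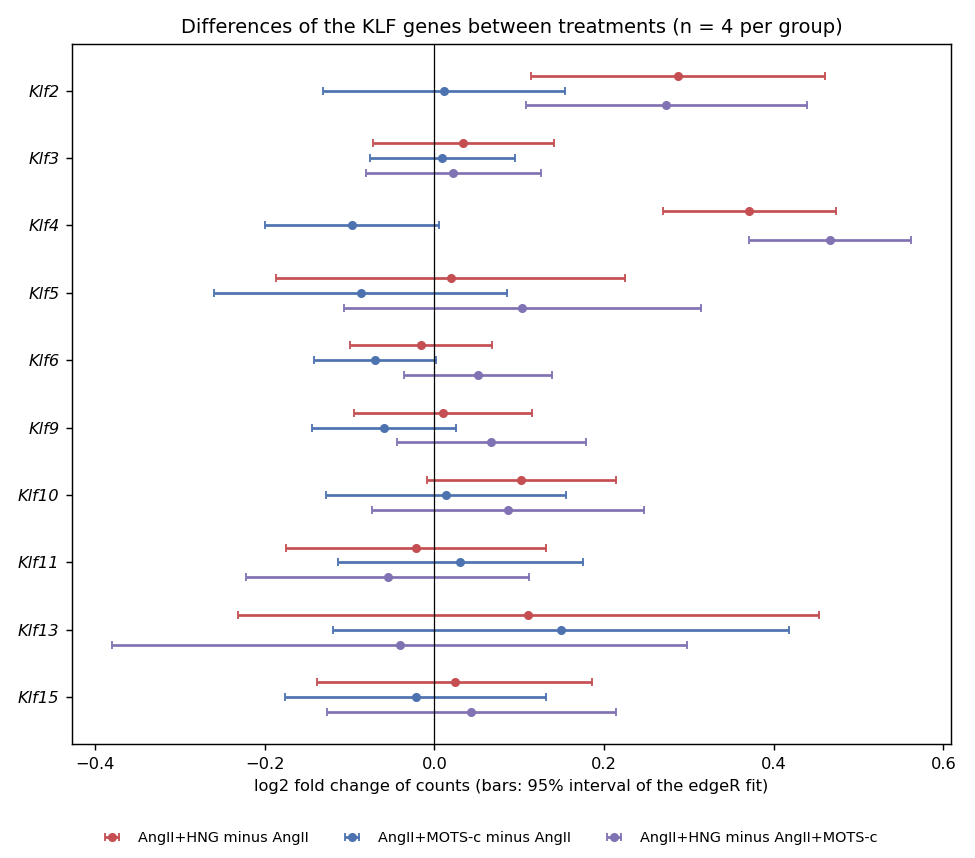
Log2 differences of the 10 KLF genes between treatments, with points for the edgeR estimate and bars for its 95% interval (n = 4 per group). Klf4, shown as a description, has the largest estimates with HNG (0.37 against AngII and 0.47 against MOTS-c), Klf2 is next at 0.29 against AngII, and the intervals of the other 8 genes include 0.

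Among the KLF genes outside the 10, 4 of 7 had enough counts to be tested and none passed the threshold in either comparison with edgeR. DESeq2 gave an adjusted p to 3 of the 7 with HNG and 2 with MOTS-c, and called none. Klf16, a repressor of the same zinc finger family, was at 27.3, 25.1, 25.2 and 23.7 CPM with AngII and at 23.1, 23.2, 23.5 and 22.1 CPM with HNG. The groups did not overlap, as for 6.82% of all genes with HNG lower, and the log2 fold change was -0.14 (SE 0.056, adjusted p = 0.193, edgeR, with an unadjusted p below 0.05). With MOTS-c it was -0.11 (adjusted p = 0.924, edgeR). Klf12, Klf8 and Klf1 had log2 fold changes of -0.00064, 0.085 and -0.47 with HNG, the last with an interval of -1.44 to 0.51. The related SP factor genes, which bind the same GC boxes, had 4 of 9 tested and none called in either comparison with edgeR or DESeq2, and none had an unadjusted p below 0.05.

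The lists of KLF cofactors and ubiquitin ligases and of the MEK5-ERK5-MEF2 route together gave 1 call with HNG (edgeR). Of 14 cofactor and ubiquitin ligase genes 1 passed the test lower, which is near background at this list size (2.58% of all genes). Of the 14 log2 fold changes 1 was above 0, compared with 51.3% of all genes, with a median of -0.054. The gene called was Smurf1, a ubiquitin ligase of the SMAD pathway, at 111.5 CPM with AngII and 94.9 CPM with HNG (log2 fold change -0.23, SE 0.043, adjusted p = 0.00845, edgeR). The MEK5-ERK5-MEF2 route, which is known to induce Klf2 and Klf4 in endothelium, had 7 genes tested and none called with edgeR or DESeq2, and 1 had an unadjusted p below 0.05.

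Pooled over 4 further lists, 9 of 56 genes passed the test with HNG (16.1%, edgeR), compared with 5.98% of all genes. The lists held glucocorticoid-responsive, circadian clock, TGF-β early response and immediate early genes. They do not measure signals acting on KLF genes, and the calls went in both directions. Of 12 glucocorticoid-responsive genes, the MAP kinase phosphatase gene Dusp1 fell by 0.38 on the log2 scale (SE 0.051, adjusted p = 0.00102, edgeR) and the EGF receptor inhibitor gene Errfi1 fell by 0.45 (SE 0.050, adjusted p = 0.000348). The metallothionein gene Mt2A rose from a mean of 1.40 to 2.29 CPM (log2 fold change 0.72, SE 0.19, adjusted p = 0.0432). Of 16 circadian clock genes, 1 was called with edgeR, a share near that of all genes (5.98%). DESeq2 called 2 of the 15 to which it gave an adjusted p. The edgeR call was the repressor gene Bhlhe41, which rose from 20.1 to 27.1 CPM (log2 fold change 0.43, SE 0.092, adjusted p = 0.0145).

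Among the TGF-β early response genes, Ltbp2, a latent TGF-β binding protein gene, fell by 0.21 on the log2 scale (SE 0.043, adjusted p = 0.0131, edgeR). Id1, a helix-loop-helix inhibitor and BMP target, rose by 0.39 (SE 0.069, adjusted p = 0.00583). Of 16 immediate early genes, Ier3 and the matricellular Ccn1 fell by 0.30 and 0.36 (adjusted p = 0.00357 and 0.00176). The medians of these 4 lists lay between -0.070 and 0.051.

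Genes of the smooth muscle contractile programme fell with HNG. Of 13 contractile genes and regulators, 9 passed the test lower and none higher, compared with 2.58% of all genes lower, and 12 of the 13 log2 fold changes were below 0 with a median of -0.24. Acta2 was at 4155 CPM with AngII, 3384 CPM with HNG and 4065 CPM with MOTS-c, with a log2 fold change of -0.29 for HNG (SE 0.037, adjusted p = 0.000727, edgeR). Cnn1, which encodes calponin, fell by 0.41 (SE 0.039, adjusted p = 0.000126) and the caldesmon gene Cald1 by 0.38 (SE 0.044, adjusted p = 0.000410). The smoothelin gene Smtn fell by 0.31 (adjusted p = 0.000511) and the myosin heavy chain gene Myh11 by 0.34 (adjusted p = 0.00152).

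The summed markers of smooth muscle cells and pericytes were also lower with HNG, and Myh11 is in both lists. The 7 markers summed to 994.9 to 1103 CPM in AngII, 834.4 to 970.4 CPM in AngII+HNG and 914.8 to 1081 CPM in AngII+MOTS-c, and 2 of 7 passed the test lower with HNG, compared with 2.58% of all genes. These were Myh11 and Notch3, the most abundant at a mean of 414.9 CPM, and the other 5 were not called with edgeR. DESeq2 called 3 of the 7. Their part in the fall of the contractile genes was not tested, nor was any link of these genes to the level of Klf4. In the other marker lists 1 of 10 cardiomyocyte, 1 of 9 fibroblast and 1 of 6 epicardial markers passed the test higher with HNG (edgeR). This compares with 3.4% of all genes, and none of 4 Schwann cell markers was called.

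With MOTS-c, none of the 9 gene lists or the 7 marker lists had a call with edgeR. At an unadjusted p below 0.05 there were 6 of the 98 genes tested in the 9 gene lists (6.12%), near the 5.05% of all genes, and DESeq2 called 1, in the smooth muscle list, among 84 to which it gave an adjusted p. Of these 6, 3 of 13 were in the smooth muscle list, where 10 of 13 log2 fold changes were below 0 with a median of -0.043, compared with -0.00076 over all genes. They were Cnn1, Myh11 and the transgelin gene Tagln, with log2 fold changes of -0.19, -0.15 and -0.11 and adjusted p of 0.690, 0.924 and 0.924 (edgeR), and for Cnn1 and Myh11 the AngII+MOTS-c libraries lay below the AngII libraries without overlap, as for 1.73% of all genes. Whether the 2 peptides differed on this list was not tested.

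**Figure D5:**
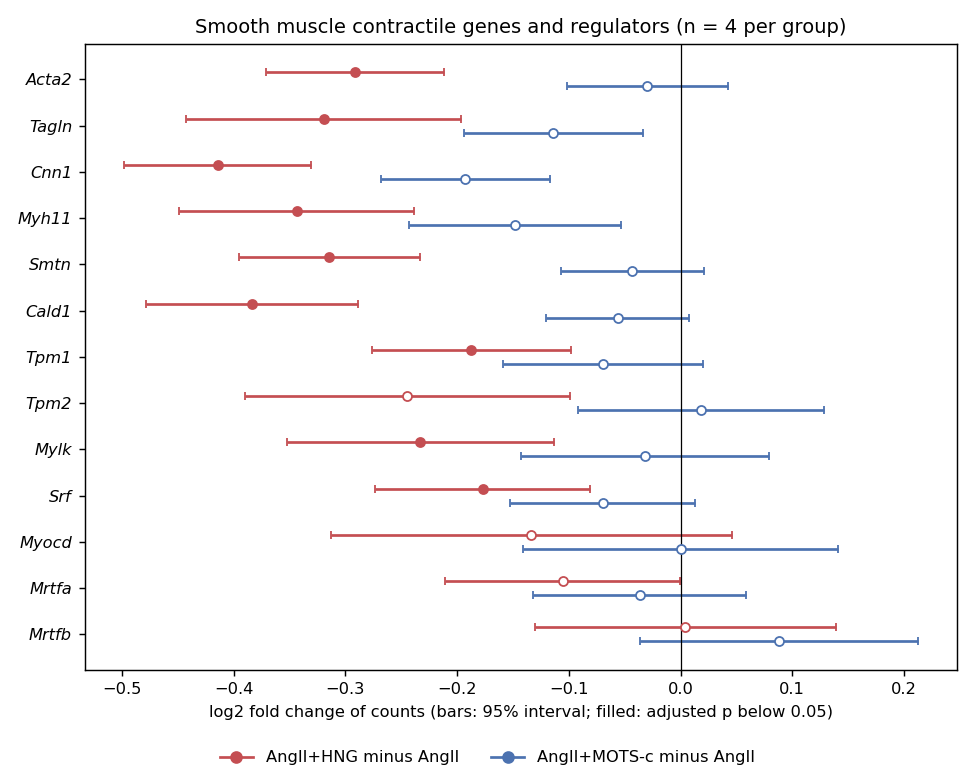
Log2 fold changes against AngII of 13 smooth muscle contractile genes and regulators, with points for the edgeR estimate, bars for its 95% interval and filled points for an adjusted p below 0.05 (n = 4 per group). With HNG 9 genes are filled and lie below 0, and with MOTS-c none is filled.

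The genes whose level followed that of Klf4 most closely were found by Pearson correlation of log2 CPM over the 12 libraries among 12285 genes. The highest were Ccnd1 (r = 0.986), Gpx1 (0.974), Adamts5 (0.968), Mgmt (0.962) and Prelp (0.961). Ccnd1 encodes cyclin D1, Gpx1 a glutathione peroxidase, Adamts5 an aggrecanase, Mgmt a DNA repair methyltransferase and Prelp a small leucine-rich proteoglycan. Ccnd1 had mean levels of 124.8, 183.3 and 114.7 CPM and Prelp of 75.2, 114.3 and 73.8 CPM in AngII, AngII+HNG and AngII+MOTS-c, the same order of groups as Klf4.

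The most opposite were Nedd9 (r = -0.973), Rgs4 (-0.961), Col12a1 (-0.960), Syde2 (-0.957) and Pdzrn3 (-0.955). Nedd9 encodes a focal adhesion scaffold, Rgs4 a regulator of G-protein signalling and Col12a1 a fibril-associated collagen, and Col12a1 had means of 720.7, 583.8 and 750.9 CPM. All 12 points share the division between AngII+HNG and the other libraries. With deviations from the group means instead, 0 of the 10 genes were the same. The r of the 5 highest then ran from 0.63 for Prelp to 0.91 for Mgmt. That of the 5 lowest ran from -0.48 for Syde2 to -0.86 for Rgs4. The r that chose these 10 genes already includes such deviations, so their kept sign is no separate support. Among the members, Klf2 was the most like Klf4 (r = 0.69), but with deviations from the group means its r was -0.22. Klf10 and Klf9 followed at 0.48 and 0.44, and Klf11 was lowest at -0.36.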

How the data were processed

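Paired-end mRNA sequencing was done on primary rat atrial fibroblasts in 3 groups of 4 libraries. Per the labels, HISAT2, Picard 1.41 and SAMtools 0.1.18 were used by the submitters. The counting tool, its settings, the strand setting and the genome build are not given in the sources used here. The authors deposited whole-number read counts per gene, not normalized, and FPKM values. FPKM was used for levels between genes, and TPM was computed from the counts and the length implied by counts and FPKM.

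The KLF members and all gene lists were chosen with earlier results of these data known, and the lists lend no independent support. Counts were fitted with edgeR 4.0.16 (quasi-likelihood test, TMM scaling, filterByExpr) in R 4.3.3, each comparison on its own 8 libraries, with Benjamini-Hochberg adjustment over all genes tested and a threshold of 0.05. SE was the log2 fold change divided by the root of F. Intervals are 95% intervals of that fit. Correlations used log2 CPM with a prior count of 2 in genes of at least 1 CPM. Genes named were every KLF gene, up to 5 called genes per list with the smallest adjusted p, the 5 most and 5 least like Klf4, and the most abundant or lowest markers. Limits of a count of 0 used 3 counts and, like the intervals, cover counting and replicate error only. Scripts were tested on simulated data. Replicate numbers were not used to pair the samples in the reported fits, and whether same-numbered libraries share an origin is not stated. Alternatives included DESeq2 1.42.0, limma 3.58.1 on log2(FPKM + 1) and log2(FPKM + 0.1), other filters and scaling, blocks and leaving out libraries. Promoter windows came from RefSeq, build GRCr8. Some genes of the lists are not reported here.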

Additional observations from a re-analysis of the deposited data

Results flagged for a closer look

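Among 30 sets of 4 libraries (10 genes in 3 groups), 2 held a library far from its group by Dixon's criterion, which chance gives in about 1 of 20 sets. Klf4 in AngII+MOTS-c replicate 2 was at 95.3 CPM, with the other 3 libraries of that group between 85.7 and 86.6 CPM, and it lay within the AngII range and below every AngII+HNG library. Klf2 in AngII+MOTS-c replicate 3 was at 21.6 CPM, with the others between 19.6 and 19.9 CPM. The cause was not tested.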

How the results depend on the processing

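Over 19 alternatives the log2 difference of Klf4 ran from 0.33 to 0.40 between AngII+HNG and AngII, from -0.14 to -0.062 between AngII+MOTS-c and AngII, and from 0.44 to 0.50 between the peptides. The number of the 9 tested KLF genes called with HNG was 0 as reported and 1, each time Klf2, with DESeq2, with a minimum of 10 counts in every library, with all 12 libraries in 1 fit, with the replicate block and with the library number block, and it ran from 0 to 1 when libraries were left out. With replicates 2 and 3 of each group, which share a library number, summed, it was 0 and the genes called with HNG went from 869 to 577. Without AngII replicate 1, 2 or 3 they were 431, 485 and 512, and without replicate 4 of every group 541, so the share of all genes called also depends on these libraries. With MOTS-c it was 0 under all 19, the replicate block included, with 7 of the 9 given an adjusted p by DESeq2. The block took the macrophage markers called with HNG from 4 to 7, and left-out libraries gave 3 to 5. The endothelial markers called ran from 1 (without replicate 4 of every group) through 2 (without AngII replicate 1 or 2, or AngII+HNG replicate 2 or 4) to 4 with libraries left out, and the smooth muscle genes called lower from 6 to 10 over all alternatives. The marker and smooth muscle counts were added to the alternatives after seeing the data. Same-numbered libraries had correlations of -0.0757 to 0.212 after removal of group means. Replicate 4 matched its own number best in every comparison (0.136, 0.119 and 0.212), and a batch shared by number was not tested. The genes called with HNG were 1111 with the replicate block and 1113 with the library number block. Of the 10 genes most or least like Klf4, Spearman correlation shared 4 and deviations from group means 0. The causes of these shifts were not tested. The 10 members kept their order of levels with medians and with TPM, the latter largely by construction because its lengths were implied by the FPKM. Klf13, at 62 to 117 counts per library, had the widest intervals of the 10, and Klf7, Klf14 and Klf17 had too few counts to test.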

Other observations

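The deposited FPKM and counts were not proportional for every KLF gene. For Klf12, the transcript length implied by counts and FPKM ran from 10.8 to 16.0 kb between libraries, and its FPKM had an SD of 0.234 around a mean of 1.88 over the 12 libraries. For Klf5 it ran from 2.71 to 3.40 kb, and AngII+HNG replicate 1 had 2.64 FPKM at 7.10 CPM while AngII replicate 2 had 2.12 FPKM at 7.22 CPM, so levels of Klf5 between libraries are better read from CPM. The implied length of Klf13 was 0.632 kb.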
